A study of Mus musculus with 2 samples.

Results

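The genes examined here encode the thyroid autoantigens thyroglobulin (Tg), the thyrotropin receptor (Tshr) and the sodium/iodide symporter (Slc5a5), together with Pax8, a paired-box transcription factor of thyroid cells. They were chosen by symbol, as every transcript line whose RefSeq accession maps to one of these names. This gave 5 lines for 4 genes, of 30794 lines and 23123 gene symbols in all. The RNA was that of medullary thymic epithelial cells (mTEC) of wild-type B6 mice, selected for poly(A) after the cells were sorted by surface MHC class II from pooled thymi. The mTEChi library came from the MHC class II high cells and gave paired reads of 100 bases, and the mTEClo library came from the MHC class II low cells and gave unpaired reads of 50 bases. Each group is 1 library of pooled animals, so differences could not be checked over replicates or tested, and the cell group and the kind of sequencing cannot be told apart.

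Medullary thymic epithelial cells transcribe genes of many peripheral organs, under the regulator Aire among others, and display the peptides to developing T cells. T cells that bind them strongly are deleted or become regulatory cells. Thyroid proteins are a classic case because autoimmune thyroid disease is directed at a few of them: antibodies against the thyrotropin receptor drive Graves disease, and thyroglobulin is a main antigen of Hashimoto thyroiditis. In the thyroid follicle the symporter takes up iodide, which is joined to tyrosines of thyroglobulin, thyrotropin controls the cell through its receptor, and Pax8 acts on the genes of all of these proteins with the homeobox factor Nkx2-1.

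All 4 genes were listed above 0 in mTEChi, at low levels, and 3 of them were listed at 0 in mTEClo. Slc5a5 alone of the 4 was listed above 0 in both libraries. Of all gene symbols, 9.84% were at 0 in mTEChi and 30.9% in mTEClo. Values are RPKM, reads per kilobase of transcript and per unit of library depth, so levels of different genes can be set side by side. Epithelial markers were present in both libraries. Epcam, an epithelial surface protein, had 198 RPKM in mTEChi and 127 RPKM in mTEClo, and none of 11 epithelial markers was at 0 in either library. The mTEClo library also held much stromal RNA. There the fibroblast genes Dcn (276 RPKM) and Postn (202 RPKM) stood above Epcam, though below the keratins Krt5 (770 RPKM), Krt8 (701 RPKM), Krt14 (566 RPKM) and Krt18 (802 RPKM). In mTEChi, Dcn had 19.5 RPKM and Postn 3.48 RPKM. Aire had 122 RPKM in mTEChi and 15.9 RPKM in mTEClo.

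The lines of Tshr show what a single value can and cannot separate, so the stretch where its transcripts part is printed here from the GENCODE M21 transcripts, 5′ to 3′, with shared bases in lower case and the bases of each transcript alone in capitals.
Tshr NM_011648, bases 744 to 843: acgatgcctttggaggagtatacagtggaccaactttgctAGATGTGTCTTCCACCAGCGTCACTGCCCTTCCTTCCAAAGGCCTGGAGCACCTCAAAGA
Tshr NM_001113404, bases 738 to 820: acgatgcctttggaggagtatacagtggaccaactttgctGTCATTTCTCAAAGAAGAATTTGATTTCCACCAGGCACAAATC
The transcripts have 777 bases in common, which is 18.0% of the 4311 bases of the longer transcript and 58.0% of the 1339 bases of the shorter one. The longer has an open reading frame of 764 codons, the full receptor. In the shorter the frame ends after 245 codons, 43 bases past the split, so it lacks the part of the receptor that crosses the membrane.

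Promoter sequences were at hand for only 2 of the 4 genes, Slc5a5 and Pax8. These had the highest values of the 4 in mTEChi, and in mTEClo Slc5a5 was above 0 and Pax8 at 0. The 250 bases before the gene start are shown on the gene's own strand, 5′ to 3′, with CG dinucleotides in capitals to show how their CG density differs. The build is GRCm38.p6. It is later than the authors' build, and no value was read by these positions.
Slc5a5, chr8:70892758-70893007, minus strand: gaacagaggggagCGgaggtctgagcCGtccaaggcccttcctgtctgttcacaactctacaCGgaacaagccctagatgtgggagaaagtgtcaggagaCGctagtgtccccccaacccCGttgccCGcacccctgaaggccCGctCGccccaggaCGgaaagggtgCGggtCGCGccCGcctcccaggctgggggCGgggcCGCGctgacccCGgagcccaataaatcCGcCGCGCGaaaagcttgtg
Pax8, chr2:24475600-24475849, minus strand: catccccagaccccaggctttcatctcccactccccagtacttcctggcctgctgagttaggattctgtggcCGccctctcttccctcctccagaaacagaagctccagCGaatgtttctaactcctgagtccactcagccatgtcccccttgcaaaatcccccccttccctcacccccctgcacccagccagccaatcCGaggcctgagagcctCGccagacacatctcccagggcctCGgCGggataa
The Slc5a5 promoter holds 21 CG dinucleotides, a number reached by 16.3% of 32851 promoter windows of this length. The Pax8 promoter holds 6, which is the median of all windows and is reached by 50.4% of them. On both strands, CCAAT was found once in each, as in 33.8% of all windows, and GGGCGG once in each, as in 32.7%. Neither CTCAAG, part of a sequence that Nkx2-1 binds, nor TATAAA was found in either, and these occur in 13.3% and 12.4% of all windows. A match is a description of letters and no evidence of binding.

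Slc5a5 (NM_053248), which carries iodide into the follicular cell, had the highest value of the 4 genes in both libraries. It was listed at 1.43 RPKM in mTEChi, with a 95% counting interval of 1.30 to 1.56 RPKM, and at 0.964 RPKM in mTEClo, with an interval of 0.735 to 1.25 RPKM. The mTEChi value is the higher one and the intervals do not overlap. The values correspond to about 479 reads in mTEChi and about 59 in mTEClo, recovered as described under the processing. The intervals cover counting error only and take each read as independent. Whether both reads of a mTEChi pair were counted is not known, and if so the mTEChi intervals are too narrow. Libraries were compared after mTEClo was multiplied by 1.21, which sets the median log2 ratio of well-expressed genes to 0. After this scaling the log2 ratio of mTEChi over mTEClo was 0.29 without a pseudocount, and its counting interval, from -0.10 to 0.71, included 0. Without scaling it was 0.57, from 0.17 to 0.98. On the log2(RPKM + 1) scale, which understates the change of low genes, the scaled difference was 0.16, far from the 2-fold threshold used here (1 on the log2 scale). Whether Slc5a5 differed between the libraries beyond counting error thus depended on the scaling.

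Pax8 (NM_011040) was listed at 1.09 RPKM in mTEChi, with an interval of 0.974 to 1.22 RPKM, and at 0 in mTEClo. In mTEChi this is about 320 reads. Had mTEClo held Pax8 at the same scaled level, 48.1 reads would have been expected there. The mTEClo library thus listed none of a transcript that was clearly above its counting error in mTEChi. No fold change is given against a value of 0.

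Tg (NM_009375), the large protein on which thyroid hormone is made, was listed at 0.982 RPKM in mTEChi, with an interval of 0.921 to 1.05 RPKM, and at 0 in mTEClo. Its transcript of 8454 bases makes this about 952 reads in mTEChi, the most of the 4 genes. The reads expected in mTEClo at the same scaled level were 143. Per base, the levels of Tg and Pax8 in mTEChi could not be told apart, as their intervals overlap, and both lay below Slc5a5.

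Tshr was the lowest of the 4 in mTEChi. The line of the shorter transcript had 0.226 RPKM in mTEChi, with an interval of 0.159 to 0.317 RPKM, and was at 0 in mTEClo. The longer had 0.208 RPKM in mTEChi, with an interval of 0.170 to 0.253 RPKM, and was also at 0 in mTEClo. The lines thus did not differ beyond counting error in mTEChi. They stand for about 35 and 103 reads there, or 26.0 and 23.9 reads per kilobase, and how reads in the shared 777 bases were assigned is not stated in what was used here. The lines are therefore not independent measurements, and which receptor form was transcribed is not known. Expected reads in mTEClo were only 5.23 for the shorter and 15.5 for the longer line, the fewest of the members.

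**Figure D1:**
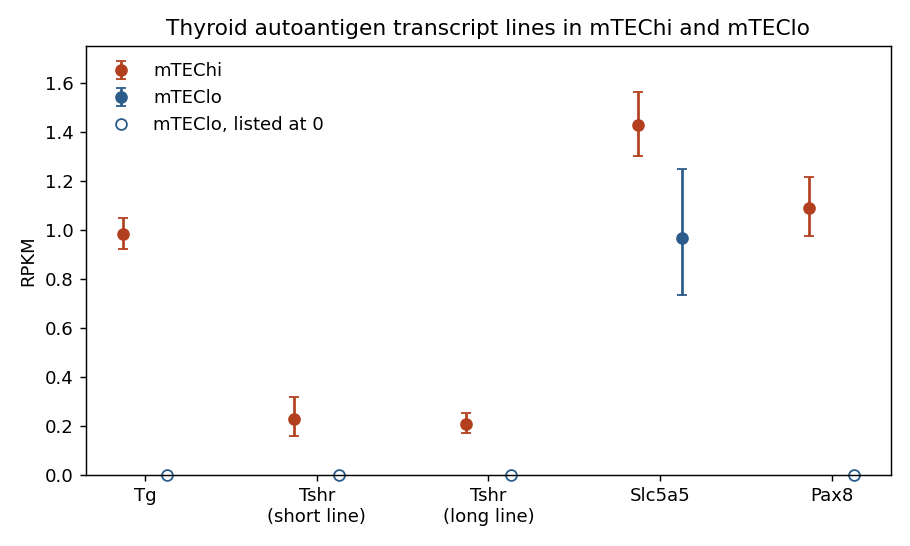
RPKM of the 5 transcript lines in mTEChi (left of each pair) and mTEClo (right), with 95% counting intervals as bars and open circles for values listed at 0. Slc5a5 is above 0 in both libraries, at 1.43 RPKM in mTEChi and 0.964 RPKM in mTEClo, while the other lines are above 0 in mTEChi alone.

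**Figure D2:**
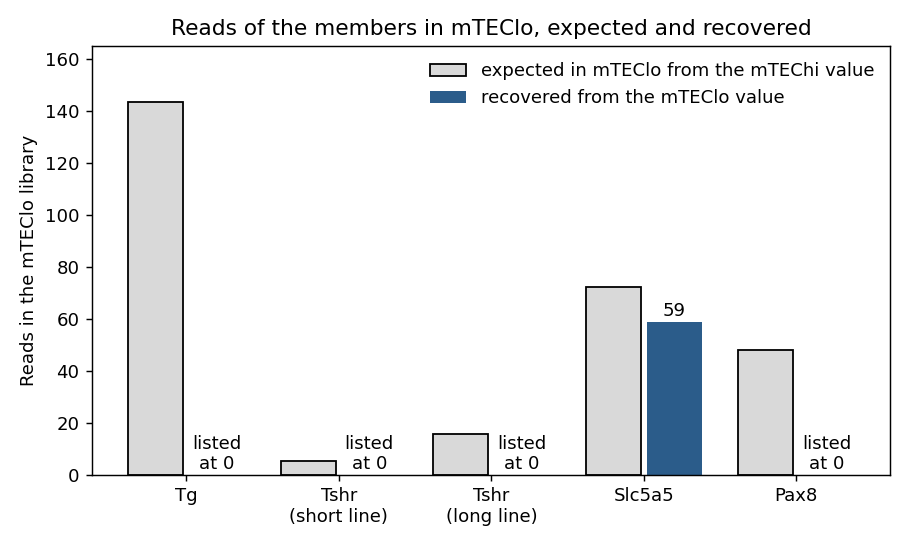
Reads of each line in the mTEClo library: those expected from the mTEChi value after depth and scaling (grey) and those recovered from the deposited mTEClo value (blue). For Slc5a5, 72.2 reads were expected and about 59 recovered, while Tg, with 143 expected, was listed at 0.

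The depth behind the values differed between the libraries. The values imply about 115000000 reads for mTEChi and 20900000 for mTEClo, a ratio of 5.50. A value of 0 in mTEClo is common: 8637 lines (28.0%) were at 0 there, against 2815 lines (9.14%) in mTEChi. It need not mean that no read was present. Rps21, which encodes part of the ribosome and is active in every cell, stood at 144 RPKM in mTEChi and at 0 in mTEClo, so a 0 may be a failed estimate. Among lines with a known length, 247 had 1 to 3 reads and 742 had 4 to 10 reads in mTEClo.

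Set against all genes, the zeros of the 4 genes differ in how common they are. Of 964 genes with 5 to 10 reads expected in mTEClo, the class of the shorter Tshr line, 69.1% were listed at 0, and of 1298 genes with 10 to 20 expected, the class of the longer, 52.0%. Of 2177 genes with 20 to 50 expected, the class of Pax8, 29.9% were at 0. For Tg the class is 100 to 200 expected reads, in which 138 of 2308 genes (5.98%) were at 0. Slc5a5, above 0, falls in the class of 50 to 100 expected reads, in which 14.1% of 1976 genes were at 0. Over all genes, a value of 0 was thus the usual one at the level of Tshr and an uncommon one at the level of Tg. Other thyroid and Pax genes given below that share the class of Tg were on both sides. Duox2, Iyd, Slc26a4, Cga, Trh and Pax7 were at 0, while Gphb5, Thrb and Ano1 were among those above 0.

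**Figure D3:**
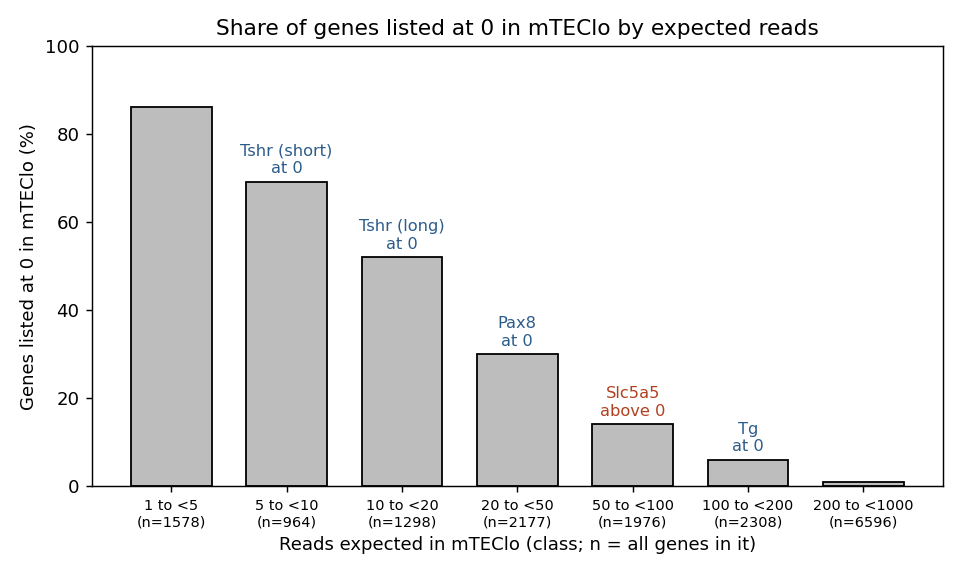
Share of all genes listed at 0 in mTEClo, in percent, by class of reads expected there from the mTEChi value, with the members written above their class. The share falls from class to class, and Tg was at 0 in a class where 5.98% of genes were.

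For the count of genes past 2-fold, genes averaging at least 0.5 RPKM over both libraries were kept, and 2 of the 4 members passed, Slc5a5 and Pax8. Tg, with a mean of 0.491 RPKM, lay just under this limit, and the 2 Tshr lines, with means of 0.113 and 0.104 RPKM, well under it. Of the 2 that passed, 1 (Pax8) was 2-fold or more higher in mTEChi, against 16.1% of 15590 kept genes, and 0 were 2-fold lower, against 9.35%. The call of Pax8 carries no weight of its own, because every kept gene at 0 in mTEClo is past 2-fold with a pseudocount of 1 RPKM, as were 829 genes (5.32%). Without scaling 74.9% of all genes past 2-fold were higher in mTEChi, against 63.3% with it, and the median change of kept genes was 0.25 in place of 0.03.

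By level, the members stand in the lower part of the mTEChi library. Slc5a5 ranked 13154th, Pax8 13982nd, Tg 14289th and Tshr 17684th of the 23123 gene symbols there. Of these, 14229 had 1 RPKM or more in mTEChi and 12808 in mTEClo. Over the 2 libraries, the genes whose pair of log2(RPKM + 1) values lay nearest to that of Slc5a5 were Dkk2 (1.45 RPKM in mTEChi and 0.943 RPKM in mTEClo), Mysm1 and Ripor2. Nearest to Pax8 were Mucl3 (1.09 RPKM in mTEChi and 0 in mTEClo), Abo and Ccdc151. With 2 values a gene this likeness is weak: 43 of 14473 genes lay within 0.1 of Slc5a5 and 127 within 0.1 of Pax8.

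The library kit kept no strand, so reads from sequence that overlapping genes share cannot be told apart. In the RefSeq table the Tg gene overlaps Sla, a signalling adaptor of lymphocytes, which had 1.55 RPKM in mTEChi and 2.90 RPKM in mTEClo. Sla is thus lower in mTEChi, the other way round from Tg. Of the 8405 stretches of 50 bases in the Tg transcript, 67 (0.797%) also occur in a transcript of another gene, all in the antisense RNA gene Gm17140 and none in Sla. For Pax8 the share was larger, with 272 of 2511 stretches (10.8%) found in the overlapping RNA gene Gm13415, whose level is not known here, so its part in the Pax8 value was not tested. None of the stretches of Slc5a5 or of the Tshr transcripts occurs in another gene. Slc5a5 lies next to Ccdc124, with 54.4 RPKM in mTEChi and 58.2 RPKM in mTEClo. The neighbours with a value were listed above 0 in both libraries, including those of the members at 0: Psd4 beside Pax8 had 3.89 RPKM in mTEChi and 2.38 RPKM in mTEClo, Gtf2a1 beside Tshr 5.32 RPKM in mTEChi and 2.02 RPKM in mTEClo, and Phf20l1 beside Tg 3.57 RPKM in mTEChi and 4.87 RPKM in mTEClo.

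Among other genes of thyroid hormone synthesis, 8 of 19 measured were listed at 0 in mTEClo and none in mTEChi. Of all gene symbols, 30.9% were at 0 in mTEClo and 9.84% in mTEChi. Of 19 measured genes (of 20 listed), 15 were kept, of which 9 were 2-fold or more higher and 1 lower, with a median log2 change of 1.12. Of the 9 higher, 6 were listed at 0 in mTEClo, where the call follows from the filter and the pseudocount, and without these 6 the median was 0.15. Among the 9 kept genes above 0 in mTEClo, 3 were higher, against 11.4% of all such genes, and 1 was lower, against 9.87%.

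The genes that supply hydrogen peroxide for hormone synthesis differed within the family. Duox2, the main oxidase of the thyroid, had 1.72 RPKM in mTEChi and was at 0 in mTEClo, and its maturation factor Duoxa2 had 2.74 RPKM in mTEChi and was at 0 in mTEClo. Duox1 was listed in both, at 0.443 RPKM in mTEChi and 0.182 RPKM in mTEClo. Iyd, which recovers iodide from unused tyrosines, had 7.04 RPKM in mTEChi and was at 0 in mTEClo, with 192 reads expected. It was the highest of the synthesis genes at 0 in mTEClo.

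Of the anion and iodide carriers, Slc26a4 (pendrin), which passes iodide to the follicle lumen, had 3.06 RPKM in mTEChi and was at 0 in mTEClo. Slc26a7 had 0.268 RPKM in mTEChi and was at 0 in mTEClo. Ano1, a chloride channel that also passes iodide, was close to equal, at 1.58 RPKM in mTEChi and 1.42 RPKM in mTEClo. The potassium channel subunits that the symporter relies on were both higher: Kcnq1 had 9.68 RPKM in mTEChi and 3.43 RPKM in mTEClo, and Kcne2 2.26 RPKM in mTEChi and 0 in mTEClo. Cdh16, a cadherin of thyroid and kidney, had 1.17 RPKM in mTEChi and was at 0 in mTEClo.

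Dio1, a deiodinase that activates thyroid hormone and that many tissues use, had the largest values among the genes of the synthesis list past 2-fold, 195 RPKM in mTEChi and 53.0 RPKM in mTEClo, a log2 change of 1.59. The chaperones Hspa5 and Pdia4, which fold thyroglobulin but serve all secretory cells, lay near 0 at -0.01 and 0.15. These chaperones and the deiodinases Dio1 and Dio2 were above 0 in both libraries, while Duox2, Duoxa2, Iyd, Slc26a4, Slc26a7, Kcne2 and Cdh16 were among those at 0 in mTEClo.

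**Figure D4:**
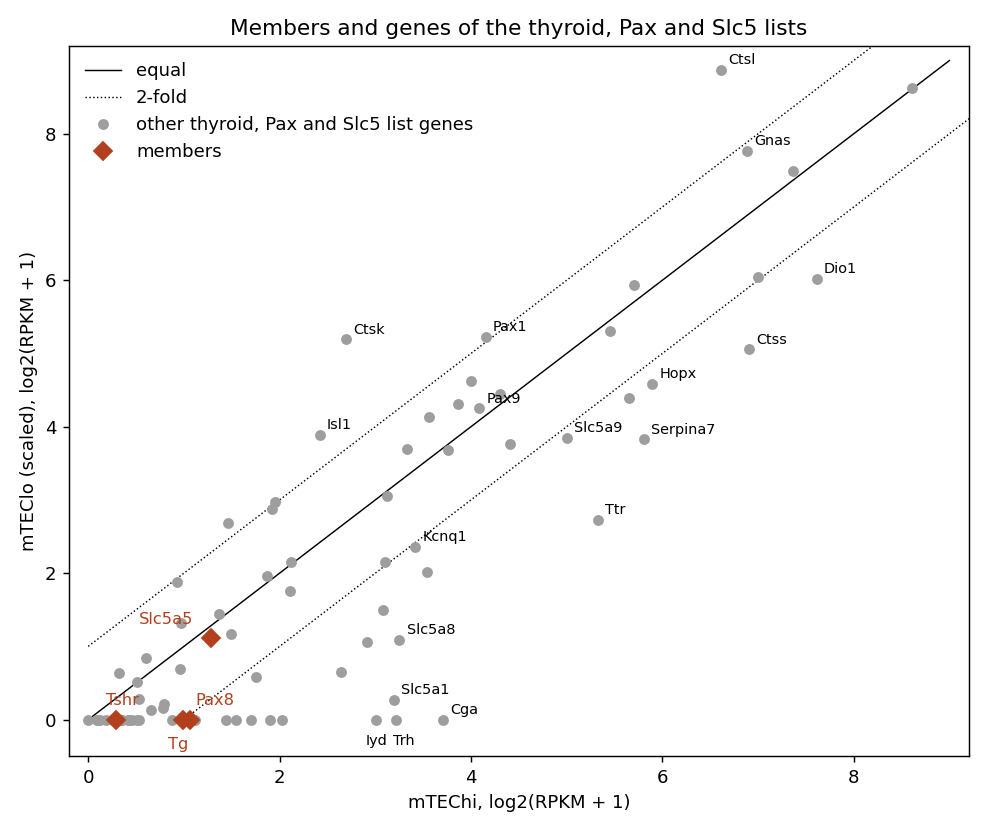
log2(RPKM + 1) in mTEChi (x axis) and in mTEClo after scaling (y axis) for the members (diamonds) and genes of the thyroid, Pax and Slc5 lists (circles). The solid line marks equal values and the dotted lines 2-fold. Slc5a5 lies near the solid line, and Tg, Tshr and Pax8 lie on the axis with Iyd, Trh and Cga, listed at 0 in mTEClo.

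The factors that act with Pax8 in the thyroid were low or mixed. Nkx2-1, its main partner, had 0.377 RPKM in mTEChi, about 97 reads, and was at 0 in mTEClo, with 14.6 reads expected. Foxe1, a forkhead factor of thyroid and skin, had 0.726 RPKM in mTEChi and 0.129 RPKM in mTEClo. Of 8 genes in this list 4 were kept, with 1 higher, against 16.1% of all kept genes, and 1 lower, against 9.35%. The higher was Hopx, a homeobox cofactor of many epithelia (58.5 RPKM in mTEChi and 19.1 RPKM in mTEClo), and the lower Isl1 (4.35 RPKM in mTEChi and 11.4 RPKM in mTEClo). Hhex had 0.954 RPKM in mTEChi and 1.24 RPKM in mTEClo, and Glis3 1.81 RPKM in mTEChi and 1.03 RPKM in mTEClo. The list median was -0.02.

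The hormones that act on the thyrotropin receptor were listed in mTEChi beside it. Cga, the alpha subunit common to the pituitary glycoprotein hormones, had 12.0 RPKM in mTEChi and was at 0 in mTEClo, where 143 reads were expected. Tshb, the thyrotropin beta subunit, had 1.05 RPKM in mTEChi and was at 0 in mTEClo, but only 9.98 reads were expected. The subunits of thyrostimulin, another ligand of the receptor, were above 0 in both libraries: Gpha2 had 6.55 RPKM in mTEChi and 0.895 RPKM in mTEClo, and Gphb5 5.26 RPKM in mTEChi and 0.474 RPKM in mTEClo. Trh, the hypothalamic releasing hormone, had 8.31 RPKM in mTEChi and was at 0 in mTEClo. Its receptor gene Trhr had 0.447 RPKM in mTEChi and was at 0 in mTEClo.

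The receptor's closest relatives were lower still than Tshr. Lhcgr had 0.065 RPKM in mTEChi and was at 0 in mTEClo, and Fshr was at 0 in both. Gnas, the G protein subunit that relays the receptor's signal, had 117 RPKM in mTEChi and 180 RPKM in mTEClo. Of 11 genes in this list 8 were kept, 5 were 2-fold or more higher, against 16.1% of all kept genes, and 0 lower, against 9.35%, with a median of 1.45. Of the 5, 3 were at 0 in mTEClo, where the call follows from the filter. Among the 5 kept genes above 0 there, Gpha2 and Gphb5 were the 2 higher, against 11.4% of all such genes, and the median turned to -0.09.

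Genes that digest thyroglobulin in the thyroid are mainly lysosomal proteases, which mTEC use to process antigens. All 8 genes of this list were kept. There was no common direction, with 1 higher, against 16.1% of all kept genes, 2 lower, against 9.35%, and a median of -0.18. Ctss, the cathepsin that also trims the class II invariant chain, was higher (119 RPKM in mTEChi and 26.8 RPKM in mTEClo, 1.84). Ctsl had 96.9 RPKM in mTEChi and 388 RPKM in mTEClo (-2.26), and Ctsk, a protease of bone and stroma, 5.49 RPKM in mTEChi and 29.5 RPKM in mTEClo (-2.50). Fibroblast markers were lower in mTEChi as well, among them Col3a1 with 3.18 RPKM in mTEChi and 72.5 RPKM in mTEClo, and their part in these differences was not tested.

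Of 16 genes for transport and action of thyroid hormone, 14 were kept, with 6 higher, against 16.1% of all kept genes, 1 lower, against 9.35%, and a median of 0.51, which was 0.07 without the 1 kept gene at 0 in mTEClo. The plasma carriers led: Ttr had 39.0 RPKM in mTEChi and 4.66 RPKM in mTEClo (2.59), and Serpina7, thyroxine-binding globulin, 55.0 RPKM in mTEChi and 10.9 RPKM in mTEClo (1.98). The receptors went apart, with Thrb at 2.38 RPKM in mTEChi and 0.407 RPKM in mTEClo (1.18) and Thra at 2.87 RPKM in mTEChi and 5.67 RPKM in mTEClo (-1.02). Slc7a8, an amino acid and hormone carrier, was higher by 1.59 and Thrsp, a thyroid hormone target in lipid synthesis, by 1.26. Dio3, which inactivates the hormone, had 1.91 RPKM in mTEChi and was at 0 in mTEClo.

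**Figure D5:**
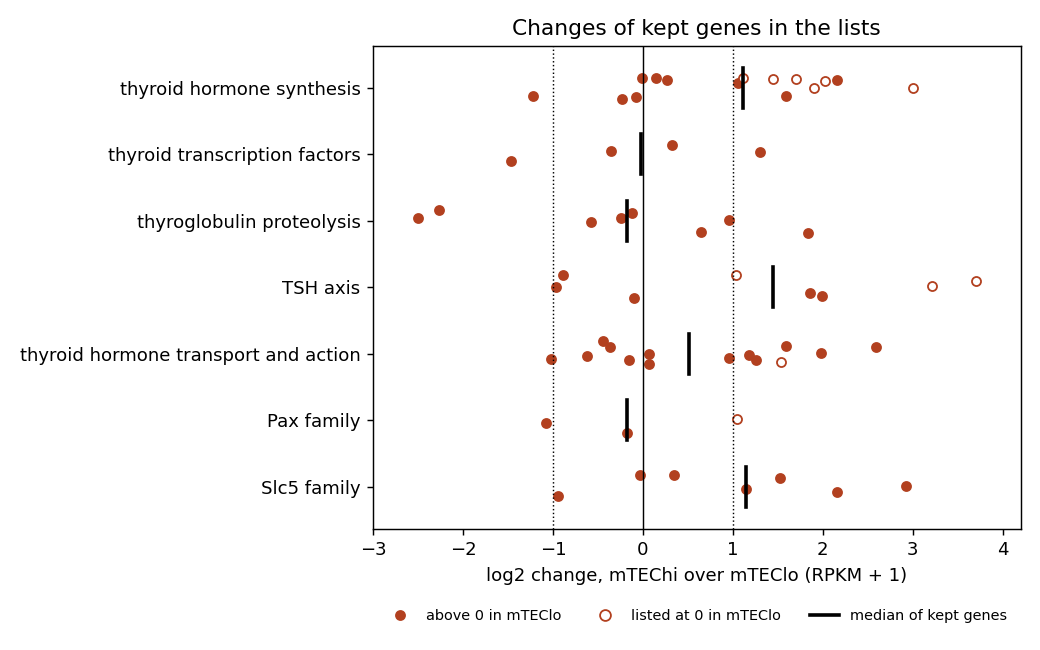
log2 change of mTEChi over mTEClo on the RPKM + 1 scale for kept genes of each list, filled where the gene was above 0 in mTEClo and open where it was listed at 0, with the median of kept genes as a bar. The synthesis and TSH axis lists hold most of the open circles, and their medians of 1.12 and 1.45 become 0.15 and -0.09 without them.

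Among its own family Pax8 was neither the highest nor the only gene at 0 in mTEClo. Pax1 and Pax9, factors of the embryonic thymus, were listed well above it, Pax1 at 16.8 RPKM in mTEChi and 30.2 RPKM in mTEClo (-1.07) and Pax9 at 16.0 RPKM in mTEChi and 15.0 RPKM in mTEClo (-0.17). Pax7, a muscle stem cell factor, was close to Pax8 at 1.06 RPKM in mTEChi and 0 in mTEClo, with 107 reads expected. Pax4, of islet cells, had 0.960 RPKM in mTEChi and was at 0 in mTEClo. Pax5, the B cell factor, had 0.339 RPKM in mTEChi and was at 0 in mTEClo. Pax2, a kidney factor of the same subgroup as Pax8 and Pax5, was above 0 in both, at 0.573 RPKM in mTEChi and 0.0791 RPKM in mTEClo. Of 8 relatives 3 were kept, with 1 higher (Pax7, at 0 in mTEClo), against 16.1% of all kept genes, and 1 lower (Pax1), against 9.35%.

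Slc5a5 lay in the middle of the sodium-coupled carrier family by level, with a median of 2.10 RPKM in mTEChi and 0.552 RPKM in mTEClo over its 12 relatives. Slc5a1, the intestinal glucose carrier, had 8.16 RPKM in mTEChi and 0.170 RPKM in mTEClo (2.93). Slc5a8, a monocarboxylate carrier also found in thyroid, had 8.52 RPKM in mTEChi and 0.934 RPKM in mTEClo (2.16). In mTEClo it thus had about the level of Slc5a5. Slc5a10 (1.53) and Slc5a9 (1.15) were higher too, and Slc5a9 had the highest values of the family, 31.0 RPKM in mTEChi and 11.1 RPKM in mTEClo. Slc5a2, the renal glucose carrier, had 3.30 RPKM in mTEChi and 1.97 RPKM in mTEClo (0.35). Of 12 relatives 7 were kept, all above 0 in mTEClo, with 4 higher, against 11.4% of all such genes, 0 lower, against 9.87%, and a median of 1.15. The other 5 were at 0 in mTEClo, as were 30.9% of all gene symbols.

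Markers of some other cells differed between the libraries as well. In bulk RNA, fewer cells of a type and less RNA per cell cannot be told apart. Dendritic cell and macrophage markers had 5 of 6 kept genes (of 7) higher, against 16.1% of all kept genes. The call of Flt3, at 0 in mTEClo, follows from the filter and the pseudocount. Among the 5 kept genes above 0 there, 4 were higher, against 11.4% of all such genes. The summed level was 525 RPKM in mTEChi and 138 RPKM in mTEClo, of which Lyz2 alone made up 493 and 133 RPKM. Xcr1 and Flt3 were at 0 in mTEClo. B cell markers had 1 of 3 kept genes (of 5) higher, against 16.1% of all kept genes. It was Cd79a, at 0 in mTEClo, so its call follows from the filter and the pseudocount. The B cell sums were 23.7 RPKM in mTEChi and 11.3 RPKM in mTEClo, where Ms4a1 and Pax5 were at 0 too. T lineage markers had 1 of 7 kept genes (of 8) higher, near the 16.1% of all kept genes. Their sums were 18.4 RPKM in mTEChi and 15.8 RPKM in mTEClo. Endothelial markers had 5 of 5 kept genes lower, against 9.35% of all kept genes. Fibroblasts and adipocytes can express Tshr, and their markers went apart. Of 8 kept genes (of 11), 5 were lower, against 9.35% of all kept genes, and 1 higher, against 16.1%. The 5 lower were the fibroblast genes Col1a1, Col3a1, Dcn, Pdgfra and Postn. The 1 higher was the adipocyte gene Adipoq (4.86 RPKM in mTEChi and 0.894 RPKM in mTEClo). The adipocyte gene Fabp4 had 998 RPKM in mTEChi and 447 RPKM in mTEClo, and Pparg 3.68 RPKM in mTEChi and 2.16 RPKM in mTEClo. Plin1, Cfd and Lep were at 0 in mTEClo and at 0.403, 0.811 and 0.0294 RPKM in mTEChi. The part of any of these cells in the values of the members was not tested.

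Markers of the organs that lie beside the thymus or share Pax8 gave no single picture. The calcitonin gene Calca, of thyroid C cells, had 76.4 RPKM in mTEChi and 10.8 RPKM in mTEClo, while Chgb, a granin of the same cells, was lower (4.80 RPKM in mTEChi and 18.9 RPKM in mTEClo). That list had 2 higher and 1 lower of 7 kept genes, against 16.1% and 9.35% of all kept genes. The parathyroid hormone gene Pth had 6.73 RPKM in mTEChi and was at 0 in mTEClo, whereas its regulator Gcm2 was at 0.360 RPKM in mTEChi and 0 in mTEClo. Kidney tubule markers had 2 of 3 kept genes (of 9) higher, against 16.1% of all kept genes. They were Umod (4.87 RPKM in mTEChi and 1.57 RPKM in mTEClo) and Cdh16. The call of Cdh16, at 0 in mTEClo, follows from the filter and the pseudocount. Tg, the most abundant transcript of thyroid follicles, was at 0.982 RPKM in mTEChi and at 0 in mTEClo. A 0 in mTEClo may be a failed estimate. Whether thyroid or parathyroid tissue reached either sort was not tested.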

How the data were processed

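Each library, mTEChi and mTEClo, is 1 deposited table with an RPKM for each RefSeq transcript, as the authors computed it, with groups taken from the labels. Build mm9, bedtools, Bowtie 1.0.0 and CASAVA are named, without roles, per the submitters' processing notes, and counting rules are not given in the sources used here. Of 30794 lines, 30396 were named through RefSeq and GENCODE M21 tables, and 874 were further copies of an accession. A gene takes its line with the highest mean. Reads were recovered from RPKM, GENCODE length and depth. The depth was that at which low lines come closest to whole reads, searched within a preset range for each library. With it, 76.1% of 1454 mTEChi lines and 65.5% of 989 mTEClo lines with 1 to 10 reads lay within 0.1 of a whole number. Counting intervals (95%, exact Poisson for a level, exact binomial for a ratio) rest on the recovered reads, each taken as independent. The scaling of 1.21 uses 5167 genes averaging at least 10 RPKM. The recovery of depth, scaling and planted changes was checked on simulated data. These held counting error only, and the changes lay in genes above the members' levels. The check thus did not cover zeros from failed estimates. The genes, lists and tests were chosen with earlier results of these data known. Named are the members, their neighbours, the nearest genes, and list genes that passed 2-fold or define their list, with some other list genes chosen after their values were seen. Alternatives were other pseudocounts, scalings, filters and sums over accessions, and, added after the data were seen, lists without genes at 0 in mTEClo. Duoxa1 was not analysed here, and some single genes that the list counts include are not reported here. Tools were scipy 1.17.1, matplotlib 3.10.9, pandas 2.3.3 and numpy 2.4.6 under Python 3.11.15.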

Additional observations from a re-analysis of the deposited data

How the results depend on the processing

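No paired analysis was possible because each group has 1 library, and none could be left out. For Tg, Tshr and Pax8, listed at 0 in mTEClo, the log2 difference follows from the mTEChi value and the pseudocount: with 1 RPKM it was 0.99, 0.29 and 1.06, with 0.1 RPKM 3.44, 1.71 and 3.57, and with 5 RPKM 0.26, 0.064 and 0.28. Summing the Tshr lines gave 0.52. In the settings run with a pseudocount, Slc5a5 stayed between 0.06 and 0.31, within its counting interval on that scale (-0.06 to 0.38). Without a pseudocount it was 0.29 with scaling and 0.57 without scaling. A pseudocount of 5 RPKM left fewer genes 2-fold higher: 3 synthesis, 2 TSH axis, 3 transport and action, 0 Pax and 2 Slc5 genes. A mean of 5 RPKM or more left 2, 1, 3, 0 and 2. Without genes at 0 in mTEClo, 3 synthesis, 2 TSH axis and 0 Pax genes were higher. Proteolysis had 2 higher without scaling and 2 with the same RPKM sum in both libraries, and the Pax family 2 with accessions summed. Thra and Pax1 were not past 2-fold without scaling or with the same RPKM sum. In all, 23 values moved and 64 did not, among the 64 those of members at 0 in mTEClo, which no scaling can move. The depth of mTEClo limits what a value of 0 says, most of all for Tshr.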
